A study of Mus musculus with 4 samples.

Results

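Phase II conjugation enzymes attach a polar group to a hormone, bile pigment, drug or toxin so that the liver and kidney can excrete it. Genes of the main superfamilies were taken by symbol from the GENCODE M21 annotation of mm10: UDP-glucuronosyltransferases of families Ugt1, Ugt2 and Ugt3, cytosolic sulfotransferases (Sult) and cytosolic glutathione S-transferases of the alpha, kappa, mu, omega, pi and theta classes (Gst). The symbol rule gave 63 of 22028 protein-coding genes, 21 in each superfamily. Chromatin immunoprecipitation with sequencing (ChIP-seq) of the glucocorticoid receptor (GR) had been carried out on male mouse liver collected at Zeitgeber time 18 (ZT18, in the dark phase), 1 h after an intraperitoneal injection of dexamethasone at 1 mg/kg (Dex, a synthetic GR agonist) or of cyclodextrin vehicle (Veh). There were 2 libraries per treatment. All 4 carry the genotype label Hnf4a fl/fl Alb-Cre +/-, in mice aged 6 to 8 weeks, in which the albumin promoter drives Cre in hepatocytes. The study describes C57BL/6 mice, so the strain, and whether the hepatocyte factor Hnf4a was deleted in both groups, is not settled. The labels do not say that the libraries came from separate animals, so p-values measure only the spread between these libraries, which may be technical.

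UGT enzymes transfer glucuronic acid from UDP-glucuronic acid, SULT enzymes transfer sulfate from PAPS, and GST enzymes join glutathione to reactive electrophiles. GR is a nuclear receptor that enters the nucleus when it binds glucocorticoid and occupies DNA at palindromic glucocorticoid response elements (GREs), at half-sites, or alongside other liver factors. The comparison addressed here is where GR was found near these genes without and with added ligand. A GR region was assigned to the protein-coding gene whose transcription start site (TSS) lay nearest to the region centre. Distances are signed, with positive values downstream of the TSS in the direction of transcription. This rule named 24 of 5883 vehicle regions and 117 of 31343 dexamethasone regions for the phase II genes.

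The libraries held between 29179899 and 91494606 reads. The regions of a treatment's own set held 1.04 and 1.35% of the reads in the vehicle libraries, and 6.35 and 7.79% of the reads in the Dex libraries. The median phase II region had 123 and 47 reads in the vehicle libraries and 89 and 135 reads in the Dex libraries, so single values in the second vehicle library rest on few reads. Values are given as RPKM (reads scaled by region width and by all reads of the library), and the 2 values of a treatment are always in the order replicate 1, replicate 2. The Dex libraries were not level with each other: Dex replicate 2 exceeded replicate 1 at 100 of 117 phase II regions (85.5%) and at 75.1% of all dexamethasone regions. All 10 hepatocyte marker genes had a dexamethasone region, whereas 0 of 8 Kupffer cell marker genes had one. Markers of cholangiocytes had one for 3 of 6 genes, and those of endothelial and stellate cells for 6 of 8 genes. Among all protein-coding genes, 11007 of 22028 had one. Many of these marker regions were far from the gene: the median distance was 314 kb for cholangiocyte markers and 33.9 kb for endothelial and stellate markers. It was 9.0 kb for hepatocyte markers and 12.1 kb for all genes. Of the 32 cholangiocyte marker regions, 29 were assigned to Sox9. In whole liver, fewer receptors per cell and fewer cells of a type cannot be told apart.

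The sequences around the GRE palindromes of phase II regions are shown first, because they separate regions of independent sequence from copies. The palindrome was searched as a pair of inverted half-elements, which reads the same on both strands, and occurred in 8 of 117 whole dexamethasone regions (6.84%) against 4.60% of all dexamethasone regions. Within 200 bp about the centre it occurred in 6 (5.13%, against 2.70%). Each stretch below is the mm10 plus strand with 15 bases on either side, and capitals mark the palindrome.
Gsta3, chr1:21232145-21232187: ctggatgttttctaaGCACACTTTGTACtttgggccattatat
Ugt1a10 upstream copy, chr1:88045119-88045161: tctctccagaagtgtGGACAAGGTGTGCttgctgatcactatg
Ugt1a10 downstream copy, chr1:88049347-88049389: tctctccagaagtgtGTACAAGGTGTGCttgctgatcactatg
Ugt1a5, chr1:88166657-88166699: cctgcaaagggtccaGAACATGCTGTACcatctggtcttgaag
Ugt1a2, chr1:88201254-88201296: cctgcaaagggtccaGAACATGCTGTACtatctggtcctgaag
Ugt2a1, chr5:87499143-87499185: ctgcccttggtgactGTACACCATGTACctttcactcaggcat
Gstk1, chr6:42252171-42252213: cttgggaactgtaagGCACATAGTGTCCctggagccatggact
Sult2a1, chr7:13814055-13814097: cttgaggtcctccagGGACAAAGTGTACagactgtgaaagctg

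Of these 8 regions, 4 formed 2 pairs of near-identical sequence. Both regions upstream of Ugt1a10 matched at 97.7% over 530 bp, and within the stretches printed above they differed by G17T, counted from the first base printed, with the upstream copy given first. The Ugt1a5 and Ugt1a2 regions matched at 94.5% over 293 bp, and their printed stretches differed by C29T and T38C, both outside the palindrome. Reads from such copies could be shared between them by the aligner, so their separate levels are uncertain. The palindrome lay in 3 of the 8 regions called higher after Dex below, at Ugt1a10, Ugt1a5 and Sult2a1. The half-site AGAACA, searched on both strands and overlapping some palindromes, lay in 60 of 117 whole regions (51.3%, against 41.0% of all dexamethasone regions) and in 6 of the 8 called regions. Neither motif was found in the called regions of Gstm2 and Sult2a7.

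The authors called each region set over ZT6 and ZT18 libraries together, so presence of a region does not by itself show occupancy at ZT18. In the vehicle set, 19 of the 63 phase II genes (30.2%) had a GR region, against 4005 of all 22028 protein-coding genes (18.2%). After Dex, 49 genes (77.8%) had one, against 11007 of the 22028. By superfamily, 20 of 21 Gst genes, 18 of 21 Ugt genes and 11 of 21 Sult genes had a dexamethasone region. Each of the 19 genes with a vehicle region also had a dexamethasone region, and 30 genes had one in the dexamethasone set alone. The 14 genes without a region in either set were Gstt4 among the glutathione transferases, Ugt1a7c, Ugt2a2 and Ugt2b38 among the glucuronosyltransferases, and 10 sulfotransferases (Sult1c1, Sult2a2, Sult2a3, Sult2a5, Sult2a6, Sult2b1, Sult3a1, Sult3a2, Sult4a1 and Sult6b1). In these dense gene clusters the nearest-TSS rule gives each region to 1 gene alone. When a gene was instead counted if a region lay over its own promoter (2000 bp upstream to 200 bp downstream of a TSS), 7 genes (11.1%, against 10.9% of all genes) had a vehicle region and 38 (60.3%, against 35.9%) had a dexamethasone region.

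**Figure D1:**
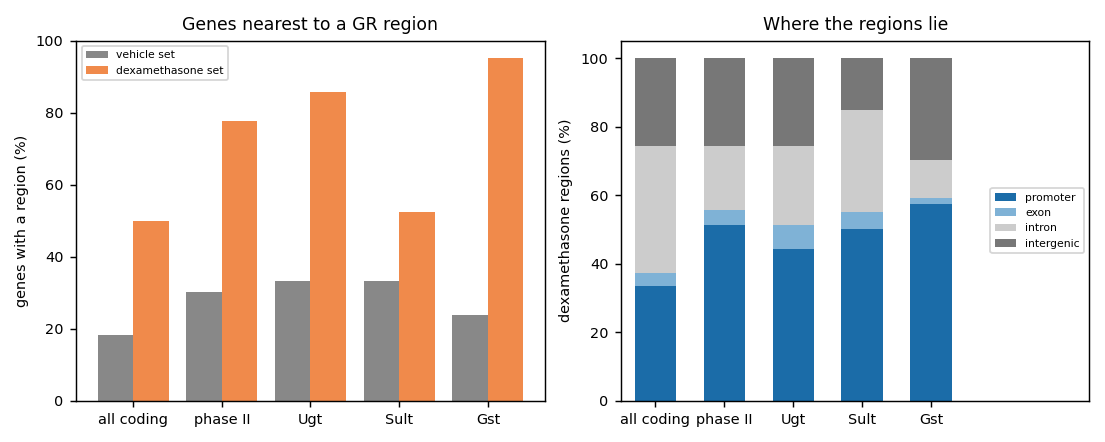
Left, the percentage of genes with a GR region in the vehicle and dexamethasone sets, for all protein-coding genes, all 63 phase II genes and each superfamily of 21 genes. Right, the percentage of dexamethasone regions by place, where a promoter may belong to any annotated gene; the Gst bar is highest on the left at 95.2%, and promoters make up 51.3% of phase II regions on the right.

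The dexamethasone regions of phase II genes lay closer to start sites than the set as a whole. Promoters of any annotated gene, pseudogenes and non-coding genes included, held 60 of 117 regions (51.3%, against 33.5% of all dexamethasone regions), and promoters of protein-coding genes held 48 (41.0%, against 28.7%). Introns held 22 (18.8%, against 37.0%), exons 5 and intergenic sequence 30. The median distance from the TSS was 4.43 kb, against 12.1 kb for all dexamethasone regions. These shares are descriptions, since neighbouring genes of a cluster are not independent. Start sites are dense in these clusters, which bounds the distance from a region to the nearest one. How far this shortens the distances and raises the promoter share was not tested. For 9 regions the centre lay in the body of a protein-coding gene outside the 3 superfamilies, and for 7 of these in no phase II gene, among them regions assigned to Sult6b2 that lie within St8sia1 and regions assigned to Gsta4 that lie within Ick.

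**Figure D2:**
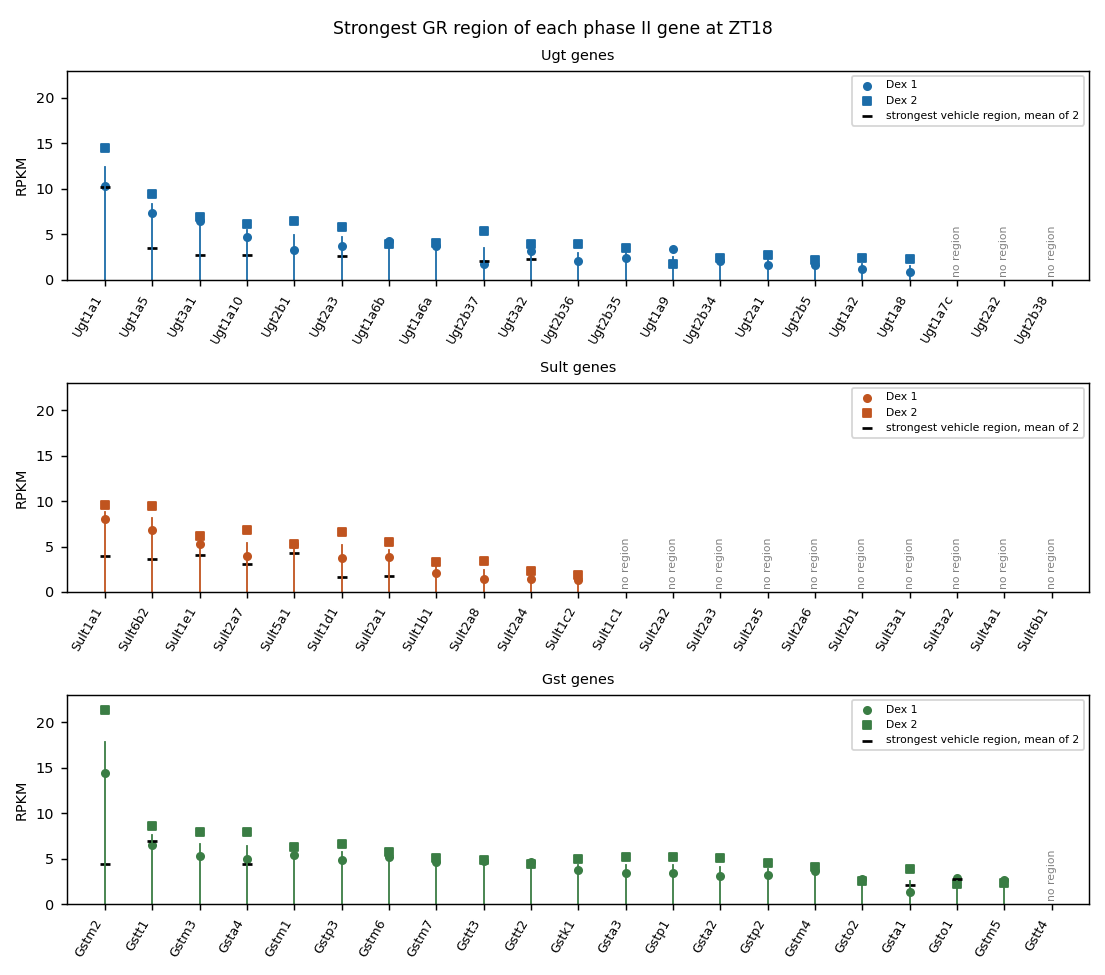
RPKM of the strongest dexamethasone region of each phase II gene in both Dex libraries (circle, replicate 1; square, replicate 2; line up to the mean), with a bar for the mean of the gene's strongest vehicle region, in 3 panels by superfamily. Gstm2 stands highest at 14.4 and 21.4, and Ugt1a1 has the highest vehicle bar at 10.2.

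Of the 117 dexamethasone regions, 93 (79.5%) had no vehicle counterpart, against 81.7% of the regions of all protein-coding genes. The other 24 matched a vehicle region one to one. Only those 24 could be tested between treatments. By edgeR's quasi-likelihood test with Benjamini-Hochberg adjustment over 5665 shared regions, 8 of 24 (33.3%) were called higher after Dex, where 11.8% of all shared regions were, and 0 were called lower, where 0.0% were. A share above 11.8% was not particular to phase II genes. Hepatocyte markers had 6 of 16 shared regions called higher (37.5%, at 2 genes). Endothelial and stellate markers had 3 of 6, and cholangiocyte markers 1 of 6. Of the pathway lists below, cofactor supply (1 of 12) and deconjugation (0 of 6) had lower shares. At an unadjusted p of 0.05, 12 of the 24 phase II regions were higher, where 29.0% of all shared regions were, and 0 were lower, where 0.406% were. The median log2 fold change was 0.68, against 0.43 for all shared regions, and 22 of 24 values were above 0, where 80.1% of all shared regions were. Both Dex libraries exceeded both vehicle libraries at 16 of 24 regions, where 51.5% of all shared regions did, and 0 of 24 showed the reverse, where 4.78% of all shared regions did. The dexamethasone region was wider than its vehicle partner by a median of 1.55 times at the phase II genes, against 1.45 times at all protein-coding genes. Without the correction for width 20 of 24 were called higher, where 3845 of all 5665 shared regions were. The 8 calls also depended on how libraries were scaled and on each library. With TMM scaling, which moved the median of all shared regions from 0.43 to -0.03, the phase II median was 0.15 and 16 of 24 values were above 0, where 47.4% of all shared regions were. With DESeq2 the phase II median was 0.18 and with the reads in shared regions as library size it was 0.090. Under each of these scalings 3 calls remained, those at Gstm2, Sult2a1 and Ugt1a5. With DESeq2, however, 10 of the 24 regions had no adjusted p and could not be called. Of all 5665 shared regions, 342 were called higher with TMM, 239 with DESeq2 and 294 with the reads in shared regions. Leaving out Veh replicate 1 or Veh replicate 2 left 1 call each, and leaving out Dex replicate 2 left 0, whereas 7 were called without Dex replicate 1, of which 6 were among the 8 and that at Ugt2b37 was new. Each of these fits leaves 1 library in a treatment, which is assumed to vary like the other treatment's pair.

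**Figure D3:**
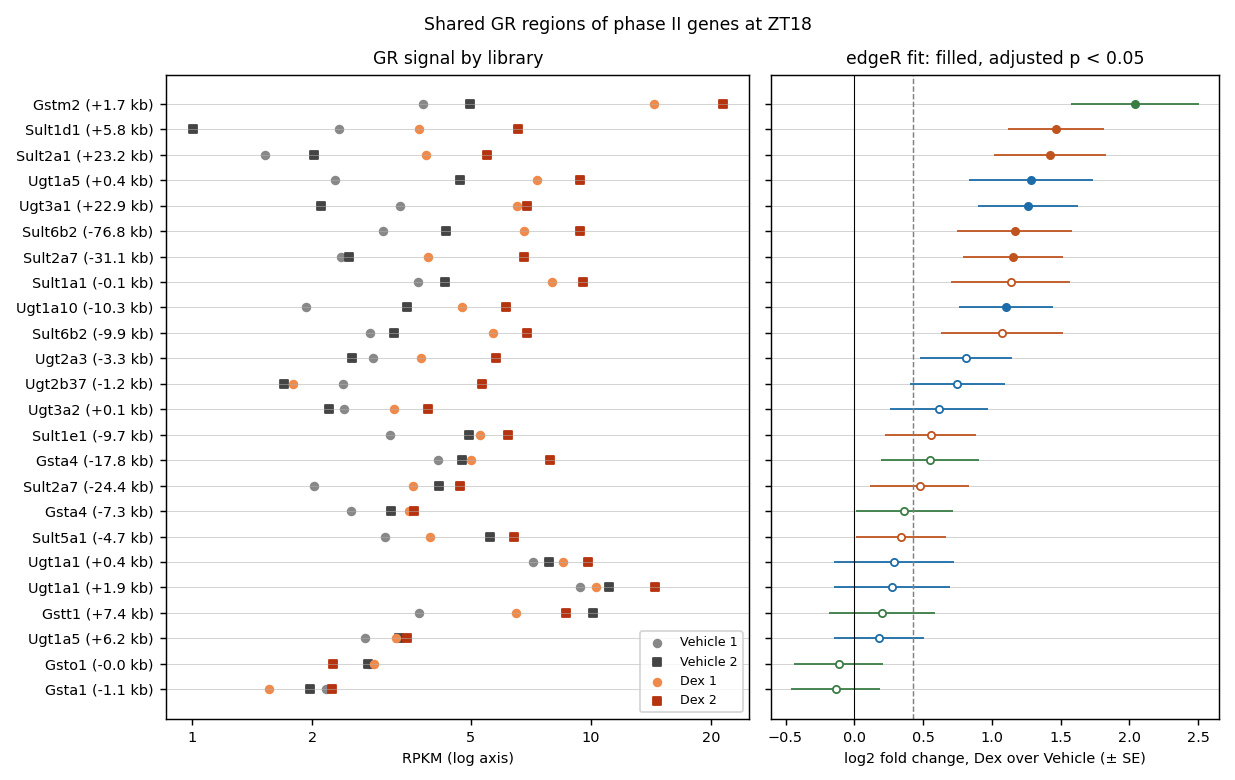
The 24 shared regions of phase II genes, named by gene and distance from the TSS. Left, RPKM in each of the 4 libraries on a log axis; right, the log2 fold change with its SE, filled where the adjusted p was under 0.05, with a dashed line at the median of all shared regions (0.43). Gstm2 lies furthest right at 2.04, and Gsto1 and Gsta1 lie below 0.

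**Figure D4:**
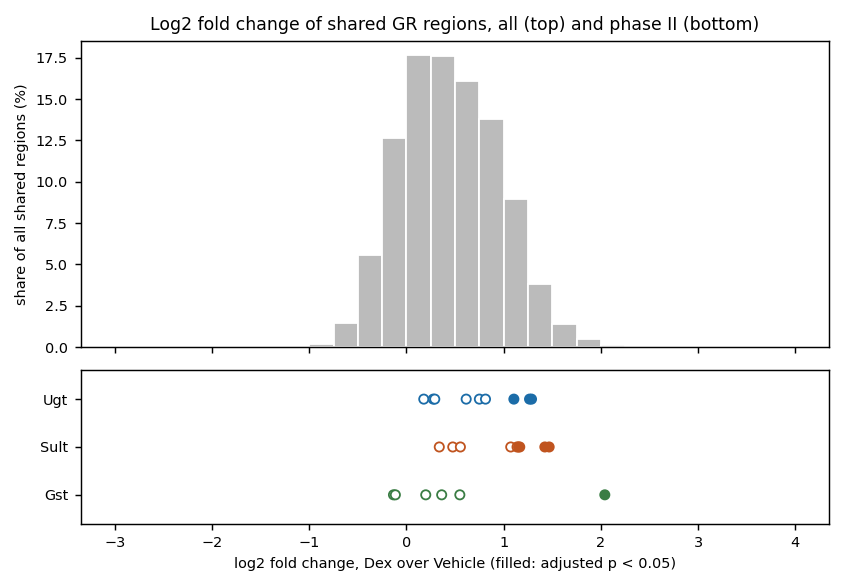
Distribution of log2 fold changes, Dex over vehicle, for all 5665 shared regions (top, percentage per bin) and for the phase II shared regions by superfamily (bottom, one circle per region, filled where called). The 9 Ugt and 9 Sult regions all lie above 0 at this scaling (with TMM scaling Ugt1a5 at 6.16 kb, both Ugt1a1 regions and Sult5a1 do not), and the 6 Gst regions run from -0.13 to 2.04.

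Among the glutathione transferases, the mu class gene Gstm2 held the strongest phase II region of the dexamethasone set. This region, in an intron 1.68 kb downstream of the TSS (chr3:107984356-107985002), had 3.78 and 4.98 RPKM under vehicle and 14.4 and 21.4 RPKM after Dex. The 2 treatments did not overlap, and the region ranked 93 of 31343 by its mean Dex RPKM. The log2 fold change was 2.04 ± 0.47 (SE, n = 2 against 2, edgeR adjusted p = 0.00205). Its 200 bases about the centre, printed because the strongest region lacks both GR motifs searched, are chr3:107984579-107984778:
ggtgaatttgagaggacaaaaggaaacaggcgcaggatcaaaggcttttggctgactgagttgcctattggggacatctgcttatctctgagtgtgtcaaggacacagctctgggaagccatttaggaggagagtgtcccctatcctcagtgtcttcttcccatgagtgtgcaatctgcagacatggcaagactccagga

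All 7 Gstm genes, which conjugate epoxides and quinones among other substrates, had a dexamethasone region, against 11007 of all 22028 protein-coding genes. Together the Gstm genes had 18 regions, and 94.4% of these had no vehicle counterpart, against 81.7% of the regions of all protein-coding genes. The intronic Gstm2 region was the single one of the 18 with a vehicle counterpart. The others were at lower levels: the next strongest by gene, at -3.23 kb from Gstm3, had 5.28 and 7.88 RPKM after Dex, and the promoter of Gstm1 had 5.37 and 6.31 RPKM. Near Gstm2 a region at 8.47 kb, with 3.50 and 8.70 RPKM, matched a region near Gstm1 at 92.5% over 307 bp. These values show 1 region far above its neighbours in a cluster where each of the 7 genes had a region.

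**Figure D5:**
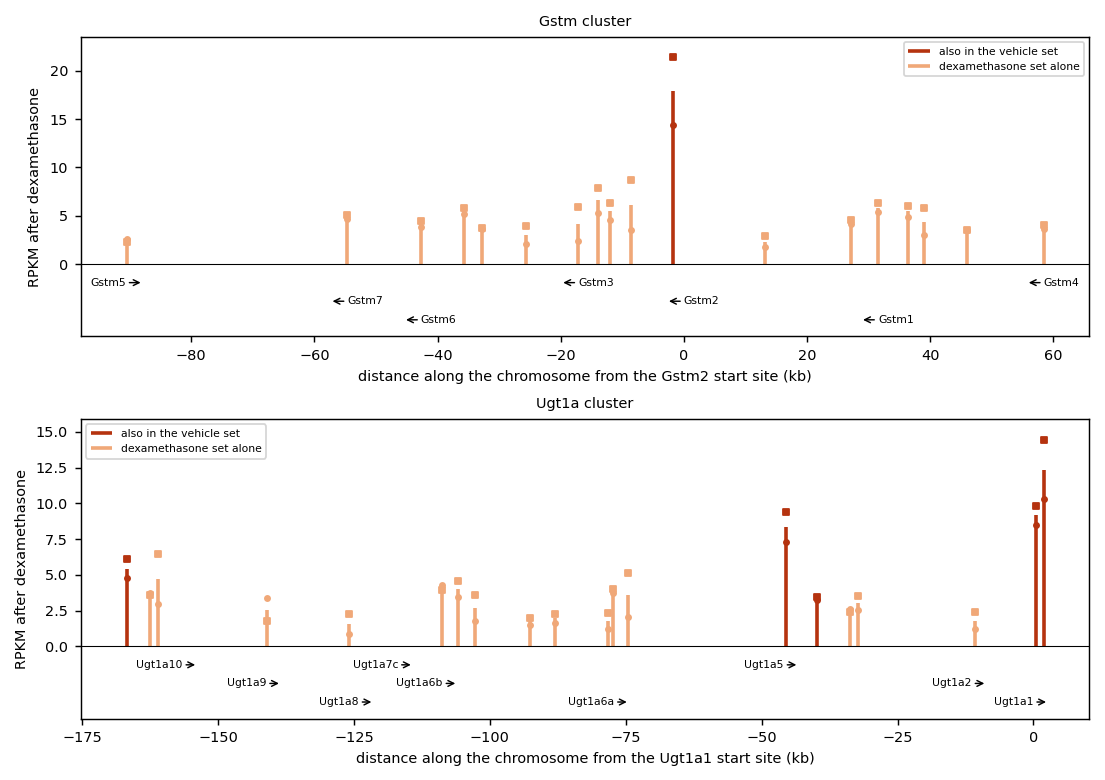
GR regions after Dex in the Gstm cluster (top) and the Ugt1a cluster (bottom), by distance along the chromosome from the Gstm2 and Ugt1a1 start sites; lines give the mean RPKM, circles and squares the 2 Dex libraries, dark red regions also in the vehicle set, and arrows the start and direction of each gene. In the Gstm cluster 1 of 18 regions is dark red, and in the Ugt1a cluster 5 of 20 are. The remaining 94.4 and 75.0% have no vehicle counterpart, against 81.7% of the regions of all protein-coding genes.

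The remaining Gst regions shared between treatments gave no call. Gstt1, a theta class enzyme, had an intronic region at 7.43 kb with 3.70 and 10.1 RPKM under vehicle and 6.49 and 8.63 RPKM after Dex. The vehicle values spanned the Dex values, and the log2 fold change was 0.20 ± 0.39. Gsta4, which conjugates products of lipid peroxidation, had 5 dexamethasone regions, of which 2 were shared. Its region at -17.8 kb, in an exon of Ick, had 4.14 and 4.73 RPKM under vehicle and 5.0 and 7.87 RPKM after Dex (log2 fold change 0.55 ± 0.36, edgeR adjusted p = 0.303). That at -7.26 kb had 2.50 and 3.16 RPKM under vehicle and 3.50 and 3.61 RPKM after Dex. The promoter regions of Gsto1 and Gsta1 had log2 fold changes of -0.11 and -0.13, within their SE of 0.32 each. The pi class genes Gstp1, Gstp2 and Gstp3 had 7 dexamethasone regions between them, at means of 3.85 to 5.69 RPKM, and none in the vehicle set. Of the dexamethasone regions of all protein-coding genes, 81.7% had no vehicle counterpart.

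Among the sulfotransferases, 4 of 9 shared regions were called higher, where 11.8% of all shared regions were. Sult1d1 had an intronic region at 5.79 kb (chr5:87562904-87563563) with 2.33 and 1.00 RPKM under vehicle and 3.71 and 6.57 RPKM after Dex. The treatments did not overlap, but the second vehicle value rests on 7 reads and the Dex region was 2.76 times as wide as the vehicle region. The log2 fold change was 1.47 ± 0.35 (edgeR adjusted p = 0.00326). Its centre, with the half-site in capitals, is shown as a called region that holds a half-site and no palindrome, chr5:87563133-87563332:
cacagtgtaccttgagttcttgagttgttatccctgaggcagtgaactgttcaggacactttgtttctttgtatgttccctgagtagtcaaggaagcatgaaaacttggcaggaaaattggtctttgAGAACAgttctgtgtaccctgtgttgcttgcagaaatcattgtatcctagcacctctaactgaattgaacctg

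The Sult2a enzymes sulfate bile acids and hydroxysteroids. Sult2a1 had a region in an exon at 23.2 kb, the one whose palindrome is printed above, with 1.52 and 2.02 RPKM under vehicle and 3.86 and 5.48 RPKM after Dex (log2 fold change 1.42 ± 0.40, edgeR adjusted p = 0.0121). Sult2a7 had a region at -31.1 kb with 2.36 and 2.47 RPKM under vehicle and 3.91 and 6.80 RPKM after Dex (1.15 ± 0.37, edgeR adjusted p = 0.0249). Both rose with no overlap between treatments. A second Sult2a7 region, at -24.4 kb, had 2.03 and 4.15 RPKM under vehicle and 3.57 and 4.68 RPKM after Dex, which overlapped. Of the 8 Sult2a genes 4 had a dexamethasone region, the same share as among all protein-coding genes (11007 of 22028).

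Sult6b2 had 5 dexamethasone regions, 3 of them between -69.4 and -76.8 kb, within St8sia1. The furthest, at -76.8 kb, had 3.0 and 4.34 RPKM under vehicle and 6.78 and 9.41 RPKM after Dex, a log2 fold change of 1.17 ± 0.42 (edgeR adjusted p = 0.0474). At -9.92 kb a second shared region had 2.79 and 3.20 RPKM under vehicle and 5.67 and 6.89 RPKM after Dex, without overlap, and missed the threshold (1.07 ± 0.44, edgeR adjusted p = 0.0838).

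Sult1a1, the main phenol sulfotransferase, had the strongest sulfotransferase region after Dex, over its own promoter (chr7:126676135-126676865). It had 3.69 and 4.32 RPKM under vehicle and 7.98 and 9.55 RPKM after Dex, which did not overlap, and the log2 fold change was 1.14 ± 0.43 (edgeR adjusted p = 0.0607). Its centre is shown as the strongest promoter of the superfamily, with the half-site, on the minus strand, in capitals, chr7:126676400-126676599:
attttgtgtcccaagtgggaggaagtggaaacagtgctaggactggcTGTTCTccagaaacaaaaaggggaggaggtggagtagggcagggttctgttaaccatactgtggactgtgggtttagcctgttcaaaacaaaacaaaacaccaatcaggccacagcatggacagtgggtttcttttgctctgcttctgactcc

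Sult1e1, which sulfates estrogens, had a region at -9.69 kb with 3.13 and 4.95 RPKM under vehicle and 5.28 and 6.19 RPKM after Dex (log2 fold change 0.55 ± 0.33, edgeR adjusted p = 0.257). Sult5a1 had the highest vehicle mean among the sulfotransferases, at -4.72 kb, with 3.04 and 5.57 RPKM under vehicle and 3.94 and 6.40 RPKM after Dex. The Sult5a1 values overlapped between treatments.

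Among the glucuronosyltransferases, 3 of 9 shared regions were called higher, where 11.8% of all shared regions were. The Ugt1a genes share their last exons and differ in the first, so a region within the cluster lies in the body of several of them. Ugt1a1, which conjugates bilirubin, had the strongest vehicle region of any phase II gene, in its intron at 1.87 kb (chr1:88213225-88214442), with 9.36 and 11.1 RPKM under vehicle and 10.3 and 14.5 RPKM after Dex. The treatments overlapped, and the log2 fold change was 0.27 ± 0.42 (edgeR adjusted p = 0.717). Its centre is shown as the region with most signal before Dex and holds no GR half-site, chr1:88213733-88213932:
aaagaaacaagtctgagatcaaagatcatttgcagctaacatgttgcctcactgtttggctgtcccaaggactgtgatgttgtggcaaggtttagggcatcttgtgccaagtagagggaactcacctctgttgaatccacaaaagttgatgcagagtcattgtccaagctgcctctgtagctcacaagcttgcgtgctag

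The Ugt1a1 promoter region, at 0.424 kb, had 7.15 and 7.87 RPKM under vehicle and 8.51 and 9.84 RPKM after Dex (log2 fold change 0.29 ± 0.44). Ugt1a5 had a promoter region at 0.405 kb (chr1:88165914-88166920) with 2.28 and 4.69 RPKM under vehicle and 7.31 and 9.39 RPKM after Dex, called higher at 1.29 ± 0.45 (edgeR adjusted p = 0.0421). It is the partner of the Ugt1a2 region in the near-identical pair printed above, and the Ugt1a2 region had 1.23 and 2.37 RPKM after Dex. Ugt1a10 had a region at -10.3 kb, the upstream copy printed above, with 1.93 and 3.46 RPKM under vehicle and 4.74 and 6.13 RPKM after Dex (1.1 ± 0.34, edgeR adjusted p = 0.0207). Both called Ugt1a regions separated the treatments without overlap, as did the Ugt1a1 promoter region and 51.5% of all shared regions. The Ugt1a1 promoter and intron regions, which were more strongly occupied, gave no call.

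Ugt3a1, of the Ugt3 family, had 5 dexamethasone regions. The strongest, in an exon at 22.9 kb, had 3.31 and 2.11 RPKM under vehicle and 6.53 and 6.92 RPKM after Dex, without overlap (log2 fold change 1.27 ± 0.36, edgeR adjusted p = 0.0129). The Ugt2 genes, whose enzymes conjugate steroids and drugs, had a dexamethasone region for 8 of 10 genes, against 11007 of all 22028 protein-coding genes. Of their 2 shared regions 0 were called, where 11.8% of all shared regions were called higher. The 2 Ugt2 shared regions were Ugt2a3 at -3.30 kb (0.81 ± 0.33, edgeR adjusted p = 0.0819) and Ugt2b37 at -1.16 kb (0.75 ± 0.34, edgeR adjusted p = 0.123). At Ugt2b37 the Dex values of 1.79 and 5.32 RPKM overlapped the vehicle values of 2.39 and 1.70 RPKM.

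Genes that supply or regulate these pathways were counted in the same way, against 11007 of all 22028 genes with a dexamethasone region and 11.8% of all shared regions called higher. Of 19 genes for cofactor supply, 17 had a dexamethasone region, and 1 of their 12 shared regions (8.33%) was called higher, below the share of all shared regions. That region was at -9.53 kb from Gclc, the catalytic subunit of the first enzyme of glutathione synthesis, with 2.56 and 4.11 RPKM under vehicle and 7.38 and 7.31 RPKM after Dex (1.19 ± 0.34, edgeR adjusted p = 0.0129). The strongest regions of the list after Dex were at Mat1a, which makes S-adenosylmethionine, with 7.97 and 9.93 RPKM, and at Cth, which makes cysteine, with 6.40 and 9.83 RPKM.

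All 17 transcriptional regulators of xenobiotic metabolism on the list had a dexamethasone region, and 2 of their 17 shared regions (11.8%) were called higher, the same share as among all shared regions. Rxra, the partner of many nuclear receptors, had 11.1 and 13.2 RPKM under vehicle and 20.5 and 35.1 RPKM after Dex at -51.4 kb (1.2 ± 0.43, edgeR adjusted p = 0.0465). Stat5a had 3.19 and 2.90 RPKM under vehicle and 8.03 and 6.3 RPKM after Dex at 10.1 kb (1.23 ± 0.43, edgeR adjusted p = 0.0407). Nr1i2, the pregnane X receptor, had a region with 14.1 and 19.2 RPKM after Dex.

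Of 23 other conjugation enzymes, 20 had a dexamethasone region, and 4 of their 14 shared regions (28.6%, against 11.8% of all shared regions) were called higher, 1 at Mgst1 and 3 at Nnmt. Mgst1, a membrane-bound glutathione transferase, had 2.77 and 2.91 RPKM under vehicle and 7.25 and 8.38 RPKM after Dex at its promoter (1.46 ± 0.40, edgeR adjusted p = 0.00966). Nnmt, which methylates nicotinamide, had 8.52 and 12.9 RPKM after Dex at its strongest region, and Nat8 had 13.3 and 16.9 RPKM. All 5 deconjugation genes found in the annotation had a dexamethasone region, the strongest at the sulfatases Arsg (8.98 and 12.0 RPKM) and Arsb (6.64 and 11.7 RPKM), and 0 of their 6 shared regions were called (4 at an unadjusted p of 0.05, where 29.0% of all shared regions were higher).

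Other motifs were counted on both strands within 200 bp about the centre of the 117 regions. The C/EBP motif TTGCNNAA occurred in 12.0% of phase II regions and 13.1% of all dexamethasone regions, the antioxidant response element TGACNNNGC in 9.40 and 10.4%, and the dioxin response core GCGTG in 16.2 and 18.9%. The FOXA motif TGTTTAC occurred in 1.71 and 4.32%, the STAT5 motif TTCNNNGAA in 4.27 and 6.68%, and the E-box CACGTG in 2.56 and 4.34%. The HNF4 half-element occurred in 1.71 and 1.39%. The HNF1 motif and the direct repeat of the xenobiotic receptors were in none of the 117 centres, and in 1 and 7 of all 31298 centres. A match is a description of letters and not a measured binding site.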

How the data were processed

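The 4 libraries (2 ZT18 Vehicle, 2 ZT18 Dex) were grouped by title. Per the submitters' processing notes, reads were handled with Bowtie 1.1.0 and SAMtools 1.2 on mm10 and regions called with MACS2 2.1.1. The authors called regions over ZT6 and ZT18 together, once per treatment. Each deposited count is the whole number of reads in a region. RPKM, as deposited by the authors, scales that count by region width and library size, and library totals were recovered from it. The deposited score equals the count less 1, times a factor set per library by the authors, and was not compared. A spike-in was used, with its scaling not given in the sources used here. ZT6 columns (20 in 4 tables) match no sample and were left out.

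Regions overlapping one to one (bedtools 2.31.1, at least 1 bp) entered the quasi-likelihood test of edgeR 4.0.16 (offset for library total and width, at least 10 reads in 2 libraries, threshold 0.05 after Benjamini-Hochberg adjustment) once it had been checked on simulated data. Spread was pooled over regions (common dispersion 0.0529), so a region's SE does not include its own replicate spread. An exact permutation test of 2 against 2 has a smallest p of 0.333. Members, gene lists and motifs were chosen with earlier results of these data known. Named genes are those with a called region, the 4 highest by Dex RPKM and the 2 highest by vehicle RPKM per superfamily, and those with 5 or more dexamethasone regions. From each pathway list they are the genes called and the 2 highest by Dex RPKM. Other genes given as examples were chosen after their values were seen. Similar regions were found with blastn 2.17.0 (at least 90% identity over 100 bp). Sequences are from RefSeq's GRCm38.p6. Alternatives were other scalings, DESeq2 1.42.0, other count and overlap minimums, no width correction, a replicate block, leaving out each library, and other rules linking regions to genes.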

Additional observations from a re-analysis of the deposited data

How the results depend on the processing

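The count of phase II regions called higher (8 of 24) was 3 with TMM scaling, 3 with reads in shared regions as library size, 3 with DESeq2 1.42.0 and 20 without width correction, and 0 to 7 when 1 library was left out. The count over all shared regions (666) was 342, 294, 239 and 3845 under the same settings, and 3 to 323 with 1 library left out. The median log2 fold change of phase II regions (0.68) was 0.15, 0.090, 0.18 and 1.31. No phase II region was called lower under any of these settings. The phase II calls did not change with no count minimum, a minimum of 50 reads, 50% overlap or a 100 kb distance limit, while all shared regions called higher numbered 666, 671, 666 and 575. With TMM scaling 342 regions of all were higher and 100 lower, with shared-region size 294 and 133, and with DESeq2 239 and 31, against 666 and 0.

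Values that turned negative were, with TMM scaling, Ugt1a5 at 6.16 kb (-0.29), Ugt1a1 (-0.17 and -0.19), Gstt1 (-0.18), Sult5a1 (-0.12) and Gsta4 at -7.26 kb (-0.11). With shared-region size they were the same regions (-0.35, -0.23, -0.25, -0.23, -0.18 and -0.17) and Gsta4 at -17.8 kb (-0.0064). With DESeq2, 16 of 24 phase II values were above 0. Among the regions with an adjusted p, Ugt1a1 (-0.16 and -0.18) and Gstt1 (-0.21) turned negative. The 10 phase II regions without an adjusted p also held values below 0, which are not listed here. Without width correction Gsto1 (0.29) and Gsta1 (0.68) turned positive. With 1 library left out, values ran from -0.42 to 1.03 at Gstt1, from -0.0081 to 1.03 at Sult2a7 at -24.4 kb, from -0.11 to 0.77 at Sult5a1, from -0.23 to 1.33 at Ugt2b37, from -0.29 to 0.043 at Gsto1 and from -0.42 to 0.10 at Gsta1. The cause was not tested.

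The vehicle and Dex libraries share replicate numbers by label alone, and deviations of same-numbered libraries correlated at 0.08 over 5665 regions. With the replicate block 11 phase II regions and 2122 of all shared regions were called higher.

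The phase II genes with a vehicle region (19) numbered 7 by promoter overlap and 9 (14.3%) among regions above the median RPKM. Of all 22028 protein-coding genes, 4005 had a vehicle region, 2396 by promoter overlap and 2027 (9.2%) above the median RPKM. The phase II genes with a dexamethasone region (49) numbered 38 and 33 (52.4%) under the same 2 rules. Of all protein-coding genes, 11007 had a dexamethasone region, and 7903 and 6053 (27.5%) had one under these rules. Depth limits single values most in Veh replicate 2, with 29179899 reads. Regions of the dexamethasone set alone have no vehicle count, so their change was not tested.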
